A study of Mus musculus with 9 samples.

Results

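The 33 genes described here belong to the unfolded protein response of the endoplasmic reticulum (ER) and to the integrated stress response that overlaps with it. They were selected by gene symbol as members of these pathways, by a rule that sets no threshold on a measured value, and each of the 33 symbols was found once among the 47729 genes listed for every library. By role they comprised 8 chaperones and co-chaperones, 7 lectins and foldases, 4 stress sensors, 5 transcription factors, 5 targets or feedback regulators of the integrated stress response, and 4 genes of ER-associated degradation. RNA-Seq was performed on polyadenylated RNA of whole newborn mouse lenses. The 3 lines, all on the inbred *FVB/N* strain, were non-transgenic wild-type *FVB/N* mice, hemizygous *P0-3.9GFPCre* mice and hemizygous *Le-Cre* mice. Each line had 3 pools, with 6 lenses from 3 mice per pool, so that every value is an average over animals. Both transgenes use the *Pax6* P0 promoter. *Le-Cre* encodes a nuclear CRE recombinase and, separately, GFP, whereas *P0-3.9GFPCre* encodes a fusion of GFP with CRE. By the study's account CRE protein was seen in embryonic lenses of both lines in the epithelium, without evidence of it in fibre cells. In newborn lenses of both lines, its RT-qPCR gave higher CRE transcript levels in the epithelial fraction than in the fibre fraction. Whole-lens RNA does not separate these cells.

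Proteins of the secretory pathway and of membranes fold in the ER with the help of chaperones. When unfolded proteins accumulate, the sensors IRE1, PERK and ATF6 raise the transcription of chaperones and degradation genes through XBP1, ATF4 and cleaved ATF6, and PERK also slows protein synthesis by phosphorylating eIF2α. Other kinases, such as GCN2 during amino acid shortage, phosphorylate the same factor, and their shared output is the integrated stress response. In the lens this response has been studied mainly in cataract models, in which mutant lens or matrix proteins misfold. Lens fibres make large amounts of membrane protein and later lose their ER together with their other organelles. Activation of the sensors takes place largely on protein, and gene-level RNA values do not distinguish spliced from unspliced *Xbp1* mRNA, so the data describe transcript levels and not sensor activity.

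Total expected counts ranged from 20670968 to 28098059 per pool. Crystallin transcripts took 39.1% to 43.0% of them, and the 33 genes together took 0.320% to 0.378%. Summed levels of 8 lens fibre markers, which include crystallins, exceeded those of every other marker list in every pool. The 4 lens epithelium markers summed to 181 to 201 TPM in *FVB/N*, 185 to 200 TPM in *P0-3.9GFPCre* and 162 to 188 TPM in *Le-Cre*. These ranges overlapped, and *Le-Cre* replicate 3 was the lowest pool. Of the markers of neighbouring cells, 5 of 5 macrophage, 4 of 4 mesenchyme and 3 of 3 surface epithelium genes stayed under 1 TPM (a transcript's share of all transcripts in the pool, scaled for length) in all 9 pools, with *Krt12* and *Krt14* at 0 throughout. For retina, 4 of 6 markers stayed under 1 TPM in all pools, and for pigment epithelium 2 of 4. Over the 9 pools these lists summed to 1.63 to 4.54 TPM and 0.75 to 6.89 TPM, respectively. Blood markers summed to 92.2 to 188 TPM in *FVB/N*, 87 to 151 TPM in *P0-3.9GFPCre* and 85.2 to 262 TPM in *Le-Cre*. Vessel markers summed to 27.6 to 39.7, 19.5 to 38.1 and 24.8 to 32.96 TPM, respectively, and the ranges overlapped between lines for blood and for vessel markers. Y-linked transcripts, which vary with the sexes of the pooled pups, lay between 0.602 and 74.2 CPM (counts scaled to the library total) in *Le-Cre* and between 121 and 193 CPM in *FVB/N*, whereas *P0-3.9GFPCre* spanned 1.66 to 135 CPM. Since *Le-Cre* and *FVB/N* did not overlap in this measure, line and sex composition cannot be told apart from the pools of these lines alone. In whole-lens RNA, fewer cells of a type and less RNA per cell cannot be told apart.

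Sequence features shared by the members were examined first, because the ER stress element, which is bound by ATF6 and XBP1 together with NF-Y, is the classical regulatory sequence of ER chaperone genes. It consists of CCAAT, 9 bases of any kind and CCACG, and it was searched on both strands of RefSeq promoter windows (GRCm38.p6) that run from 250 bases before to 50 bases after each transcription start. Windows existed for 29 members, the others being *Hyou1*, *Manf*, *Atf6* and *Ppp1r15b*. The element occurred in 8 of 29 members (27.6%), compared with 37 of 27025 genes with a window (0.137%). The 37 genes include these 8. Since the members were selected as genes of the pathway in which this element acts, its recurrence among them is not an independent result. The matches are shown with the 2 conserved parts in capitals and the spacer in lower case. Each is written 5′ to 3′ on the strand that carries it.
*Hspa5*, chr2:34772025-34772043, gene strand: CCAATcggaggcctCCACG
*Hsp90b1*, chr10:86705638-86705656, gene strand: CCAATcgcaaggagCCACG
*Hsp90b1*, chr10:86705533-86705551, opposite strand: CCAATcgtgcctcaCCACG
*Dnajc3*, chr14:118937827-118937845, gene strand: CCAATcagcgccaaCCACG
*Calr*, chr8:84847075-84847093, opposite strand: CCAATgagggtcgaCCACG
*Canx*, chr11:50325800-50325818, gene strand: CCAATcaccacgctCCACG
*Pdia6*, chr12:17266491-17266509, gene strand: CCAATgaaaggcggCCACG
*Creld2*, chr15:88819520-88819538, opposite strand: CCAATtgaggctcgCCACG
*Syvn1*, chr19:6046532-6046550, gene strand: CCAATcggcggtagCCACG

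Of these 8 genes, 7 were among the 13 chaperone, lectin and foldase genes with a window. The exception was *Syvn1*, the ubiquitin ligase of ER-associated degradation. All 9 matches lay before the transcription start, with their first base 44 to 212 bases upstream. The CCACG part alone, which lies within every ER stress element, was far less selective, since it occurred in 22 of 29 members and in 35.5% of all genes with a window.

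**Figure D1:**
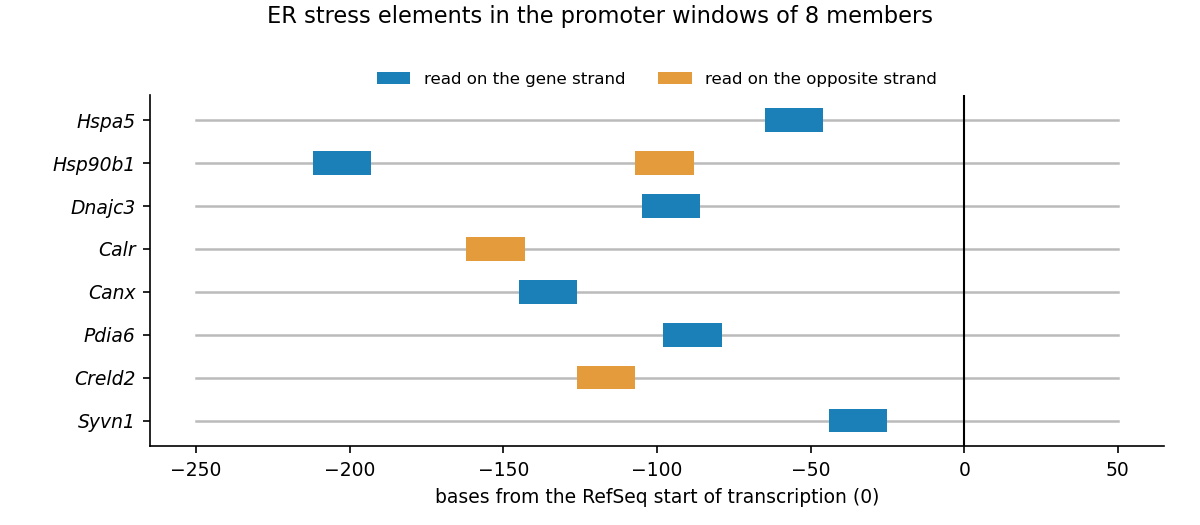
Positions of the 9 ER stress elements in the promoter windows of 8 members, plotted as bases from the RefSeq transcription start (0). Grey lines show the 300-base window, and boxes show the 19-base matches, coloured by the strand on which they read. All boxes lie upstream of the start, and *Hsp90b1* carries 2.

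The amino acid response element TTGCATCA, through which ATF4 acts on several of its targets, was found on either strand in 3 of 29 members, compared with 1.03% of all genes. The matches, shown for the 3 genes that carry the element, lay at chr1:191183436-191183443 for *Atf3*, chr2:119351049-119351056 for *Chac1* and chr8:94386317-94386324 for *Herpud1*. The palindrome TGACGTCA, a cyclic AMP response element, occurred in *Ppp1r15a* alone among the members and in 2.03% of all genes. TGACGTGG, a sequence bound by XBP1, shares its first bases with this palindrome and contains CCACG on its other strand. It was found in 0 of 29 member windows and in 0.714% of all genes. Since the members were selected as genes of these pathways, their shares with the amino acid response element and with CCACG are likewise not independent results. A match describes the sequence only, and binding was not measured.

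Chaperones, lectins and foldases dominated the transcript levels. In *FVB/N* lenses, 7 members exceeded 100 TPM, 10 lay between 10 and 100 TPM, 13 between 1 and 10 TPM, and 3 below 1 TPM. *Calr*, which encodes the glycoprotein chaperone calreticulin, had the highest mean level of 340 ± 77.5 TPM (SD, n = 3). Its values were 391, 379 and 251 TPM in *FVB/N*, 421, 386 and 384 TPM in *P0-3.9GFPCre*, and 344, 387 and 355 TPM in *Le-Cre*. The wide spread in *FVB/N* came from replicate 3, the lowest of all 9 pools. *Pdia6*, a protein disulfide isomerase, followed with 220 ± 12.1 TPM in *FVB/N*. *Hsp90b1* (GRP94) had 146 ± 8.42 TPM and *Hspa5* (BiP, the chaperone that also restrains the sensors) had 143 ± 5.42 TPM, and their pools overlapped. *Pdia3*, which acts with calreticulin and calnexin on glycoproteins, had 126 ± 5.09 TPM, and *Canx*, which encodes calnexin, had 121 ± 8.46 TPM.

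The remaining folding genes were lower. *P4hb*, a disulfide isomerase that is also a subunit of prolyl 4-hydroxylase, *Dnajb11*, a BiP co-chaperone, and *Manf*, a secreted factor retained in the ER, lay between 69.5 and 75.8 TPM in *FVB/N*. *Pdia4* had 36.5 ± 3.21 TPM and *Hyou1*, a large HSP70-like chaperone, had 25.8 ± 1.93 TPM. The co-chaperones *Dnajc3* and *Dnajb9* and the disulfide isomerase-like gene *Creld2* lay between 8.57 and 9.17 TPM, and *Sdf2l1*, a component of a BiP co-chaperone complex, was the lowest of the 15 at 4.28 ± 1.14 TPM.

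The 4 sensors were all low. *Eif2ak4* (GCN2), *Atf6* and *Eif2ak3* (PERK) lay between 4.54 and 4.66 TPM in *FVB/N*, and *Ern1* (IRE1) had 1.28 ± 0.175 TPM. Neighbours among the first 3 overlapped in their pools, whereas *Ern1* stood apart from *Edem1*, the gene ranked next above it.

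The transcription factors differed widely in level. *Atf4*, the central factor of the integrated stress response, ranked just below *Hspa5* with 132 ± 3.75 TPM. *Atf5*, which is under similar translational control, had 32.6 ± 2.69 TPM and *Xbp1* had 19.0 ± 2.38 TPM. *Ddit3*, which encodes the pro-apoptotic factor CHOP, had 3.93 ± 0.855 TPM, and *Atf3*, an immediate stress-induced repressor, had 0.297 ± 0.127 TPM.

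Among targets and feedback regulators, *Ppp1r15b*, the constitutive partner of the phosphatase that acts on eIF2α, had 14.0 ± 0.365 TPM and *Asns*, which encodes asparagine synthetase, had 13.6 ± 1.78 TPM. *Ppp1r15a* (GADD34), the stress-induced counterpart of *Ppp1r15b*, had 6.98 ± 0.371 TPM. *Trib3*, a pseudokinase that restrains ATF4 and CHOP, and *Chac1*, a glutathione-degrading enzyme, are strongly induced by ATF4 in many cells, and both were close to 0. The degradation genes *Herpud1*, *Sel1l*, *Syvn1* and *Edem1* had 22.8 ± 1.38, 9.31 ± 0.457, 7.51 ± 0.561 and 2.30 ± 0.515 TPM. The first organizes the ER ubiquitin ligase complex, *Sel1l* and *Syvn1* form its core, and *Edem1* trims glycans of substrates. Across the order of mean levels, 16 of 32 neighbouring pairs had overlapping pools in *FVB/N*.

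**Figure D2:**
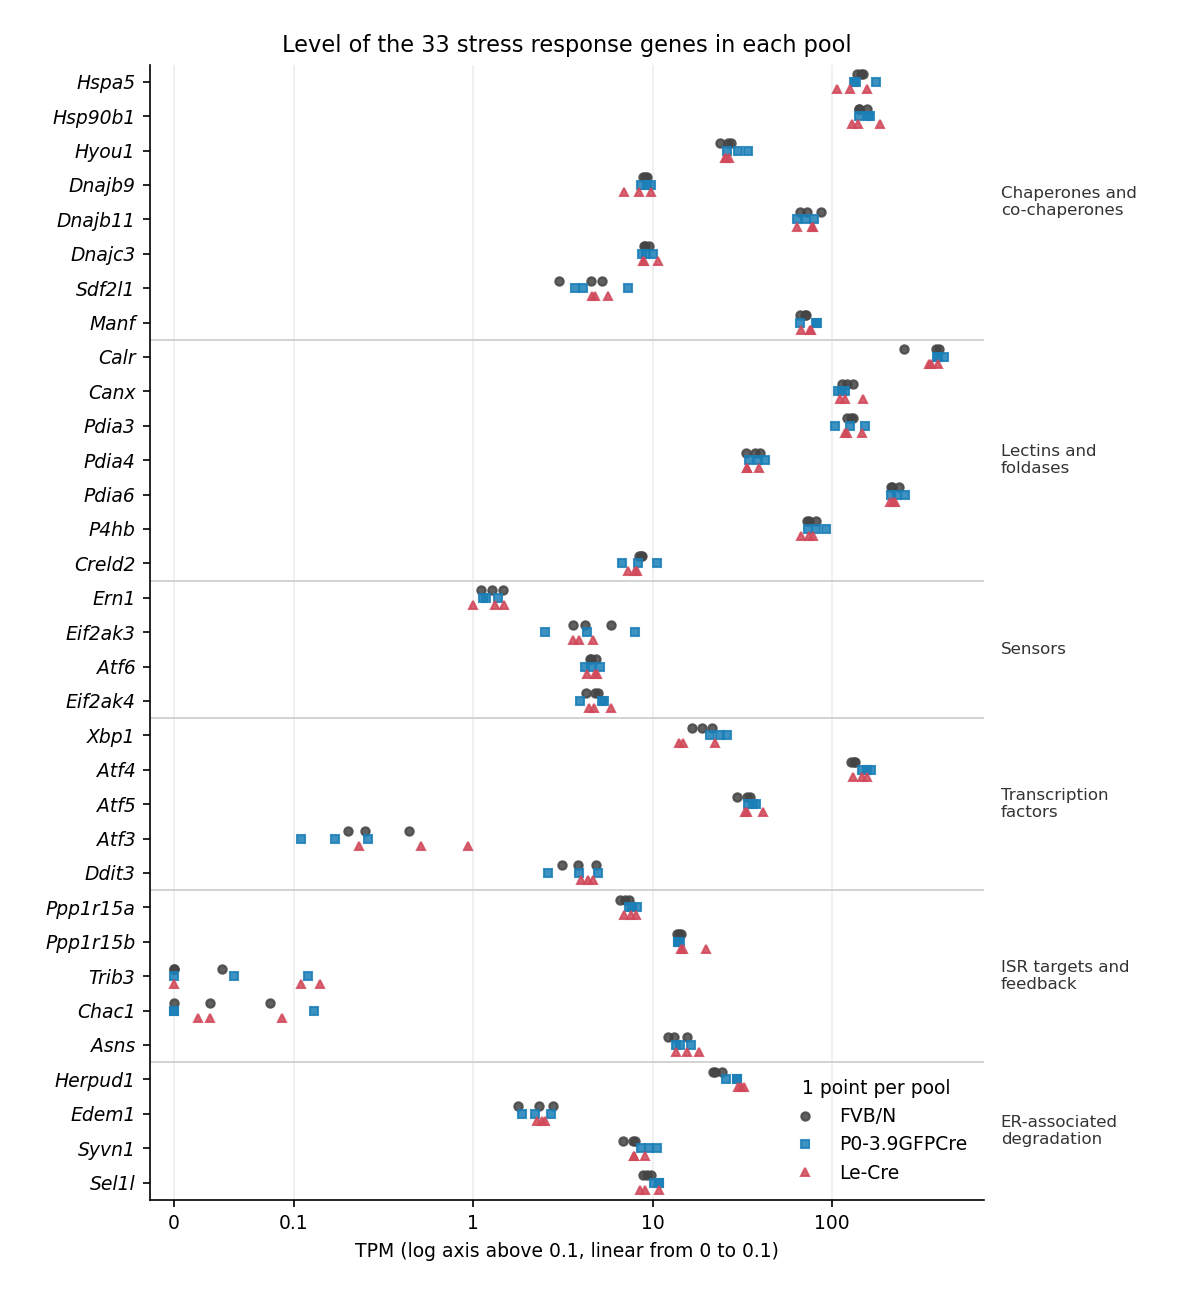
Level of each of the 33 genes in TPM, with 1 point per pool, 3 pools per line, and genes grouped by role. The axis is logarithmic above 0.1 TPM and linear from 0 to 0.1 TPM. *Atf4* and the highest folding genes lie above 100 TPM in *FVB/N*, the 4 sensors stay under 10 TPM, and *Atf3*, *Trib3* and *Chac1* stay under 1 TPM in all pools.

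The stress-induced genes at the foot of this order were at or near the limit of detection. *Atf3* had 6, 6 and 8 counts in the *FVB/N* pools, 7, 4 and 10 in *P0-3.9GFPCre*, and 6, 17 and 9 in *Le-Cre*. *Trib3* had 2, 0 and 0 counts in *FVB/N*, 2, 0 and 4 in *P0-3.9GFPCre*, and 6, 0 and 6 in *Le-Cre*. *Chac1* had 0, 1 and 3 counts in *FVB/N*, 0, 4 and 0 in *P0-3.9GFPCre*, and 1, 1 and 3 in *Le-Cre*. All 3 genes overlapped between lines, and they did not pass the filter on low counts. The other 30 members were tested within the fit of 15557 genes.

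The study compared the lines to learn whether either transgene altered gene expression in the lens. No member passed the cutoff of a 1.5-fold difference with an adjusted p of at most 0.05 (edgeR quasi-likelihood test with Benjamini-Hochberg adjustment) in any of the 3 comparisons. In *Le-Cre* against *FVB/N*, 0 of 30 members passed, beside 0.0643% of all 15557 tested genes. The count was also 0 of 30 in *P0-3.9GFPCre* against *FVB/N* and in *Le-Cre* against *P0-3.9GFPCre*, beside 0.00% of all genes in each. DESeq2, run as the other tool, likewise gave 0 members past the cutoff in each comparison. However, it gave no adjusted p for *Syvn1* in *P0-3.9GFPCre* against *FVB/N* (unadjusted p = 0.0275 by DESeq2). A member without an adjusted p could not pass, so for such members this 0 is not a separate check. At an unadjusted p under 0.05 the edgeR counts were 1 of 30 members (3.33%, against 7.94% of all genes), 2 of 30 (6.67%, against 6.81%) and 2 of 30 (6.67%, against 7.88%), respectively. These shares do not stand apart from the background. The 2 comparisons with *FVB/N* share the same 3 control pools.

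The intervals come from the fit without covariates and reflect the spread between pools. They do not cover the difference in Y-linked CPM between *Le-Cre* and *FVB/N*. The 95% interval of the fold change lay entirely within 1.5-fold in either direction for 29 of 30 members in *Le-Cre* against *FVB/N*, for 27 of 30 in *P0-3.9GFPCre* against *FVB/N* and for 28 of 30 in *Le-Cre* against *P0-3.9GFPCre*. The corresponding shares of all tested genes were 58.5%, 58.9% and 58.5%. The members had narrower intervals, with a median SE of 0.09 against 0.15 for all tested genes in each comparison. *Sdf2l1* was the exception in all 3 comparisons, *Ddit3* in both that involve *P0-3.9GFPCre*, and *Ern1* in *P0-3.9GFPCre* against *FVB/N*. These were genes of low count, with 69 to 166 counts per pool for *Sdf2l1*, 46.5 to 84 for *Ddit3* and 121 to 243 for *Ern1*. The median log2 fold change of the 30 members was −0.02, −0.02 and −0.0002 in the 3 comparisons, and that of all tested genes was −0.004, 0 and −0.0018.

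**Figure D3:**
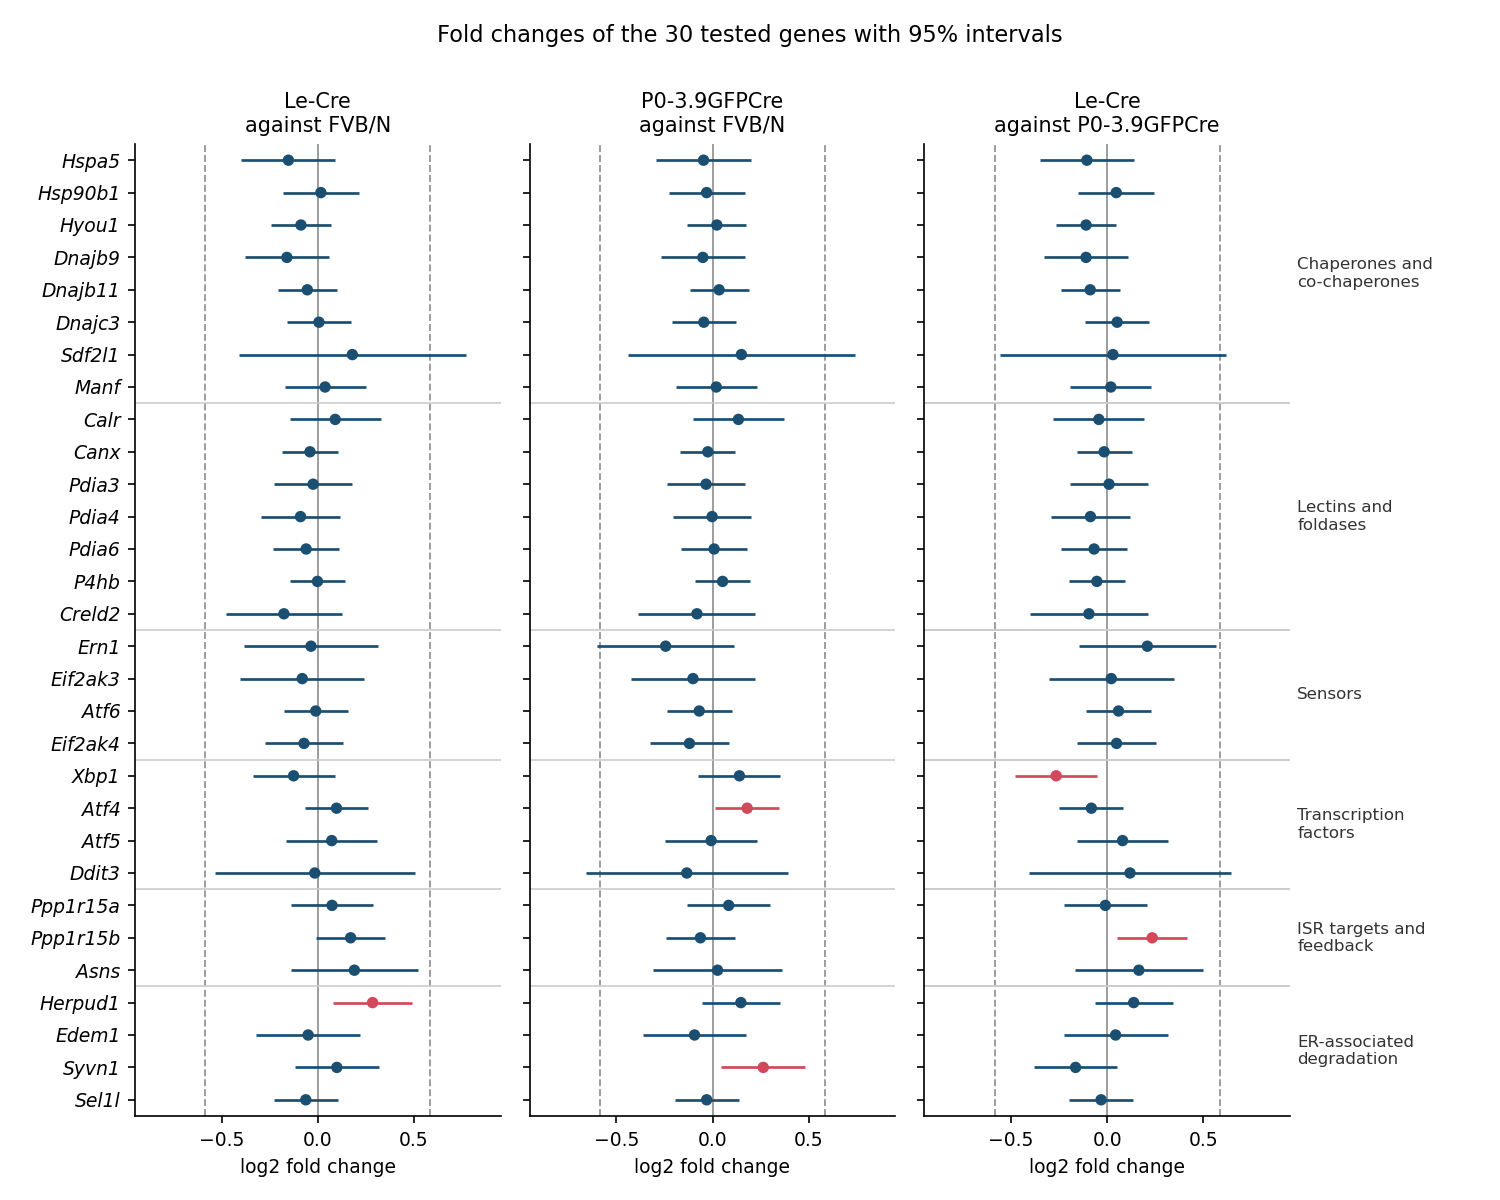
Log2 fold changes of the 30 tested members (points) with their 95% intervals (lines) in the 3 comparisons, by edgeR's quasi-likelihood fit of all 9 pools. Dashed lines mark 1.5-fold, and red marks an unadjusted p under 0.05. No gene passed after adjustment, and most intervals lie between the dashed lines.

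The folding genes are taken first. Among the 8 chaperones, log2 fold changes ranged from −0.16 to 0.18 in *Le-Cre* against *FVB/N*, from −0.05 to 0.15 in *P0-3.9GFPCre* against *FVB/N* and from −0.11 to 0.05 in *Le-Cre* against *P0-3.9GFPCre*. Among the 7 lectins and foldases the corresponding ranges were −0.18 to 0.09, −0.08 to 0.13 and −0.10 to 0.01. None of these 15 genes had an unadjusted p under 0.05 in any comparison. *Hspa5*, on chromosome 2 from 34771970 to 34777547 (GRCm38), is the member most often read as a gauge of ER stress. It had 276, 252 and 303 CPM (scaled with TMM factors) in *FVB/N*, 313, 251 and 241 CPM in *P0-3.9GFPCre*, and 221, 274 and 253 CPM in *Le-Cre*. The lines overlapped, and *P0-3.9GFPCre* replicate 1 was the highest pool. Its log2 fold change was −0.15 (SE 0.11, adjusted p = 0.803) in *Le-Cre* against *FVB/N*, −0.05 (SE 0.11, adjusted p = 0.959) in *P0-3.9GFPCre* against *FVB/N* and −0.11 (SE 0.11, adjusted p = 0.867) in *Le-Cre* against *P0-3.9GFPCre*. *Creld2* was the only folding gene whose pools did not overlap between *Le-Cre* and *FVB/N*, and 7.03% of all genes had lower pools without overlap in that comparison. Its levels were 9.53 ± 0.504 against 10.8 ± 0.524 CPM, with an interval of the fold change from −0.48 to 0.13 on the log2 scale.

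The 8 genes with an ER stress element, whose *FVB/N* levels ran from 7.51 TPM for *Syvn1* to 340 TPM for *Calr*, had median log2 fold changes of −0.02, −0.03 and −0.06 in the 3 comparisons. At an unadjusted p under 0.05 they numbered 0 of 8, 1 of 8 (*Syvn1*) and 0 of 8, beside 7.94%, 6.81% and 7.88% of all genes.

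Chaperones, lectins and foldases also differed between pools of the same line. Relative to each gene's *FVB/N* mean, the median log2 deviation of these 15 genes was −0.03, −0.06 and 0.08 in the *FVB/N* pools, 0.11, −0.13 and −0.01 in the *P0-3.9GFPCre* pools, and −0.09, −0.004 and −0.02 in the *Le-Cre* pools. The lowest and the highest of these medians both belonged to *P0-3.9GFPCre*. Its replicate 1 was the highest of all 9 pools for 7 of the 15 genes, and its replicate 2 was the lowest for 5. The same counts over all tested genes were not made, so these counts cannot be read as particular to folding genes. *P0-3.9GFPCre* replicate 1 also had the lowest crystallin share of the 9 pools (39.1%) and the largest TMM factor (1.04). Single genes departed from these medians. *Calr* was lowest in *FVB/N* replicate 3 (419 CPM), and *Canx* was highest in *P0-3.9GFPCre* replicate 2 (376.5 CPM). For the other 15 tested members the medians of the 9 pools lay between −0.06 and 0.10, and no *P0-3.9GFPCre* pool was at either end.

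**Figure D4:**
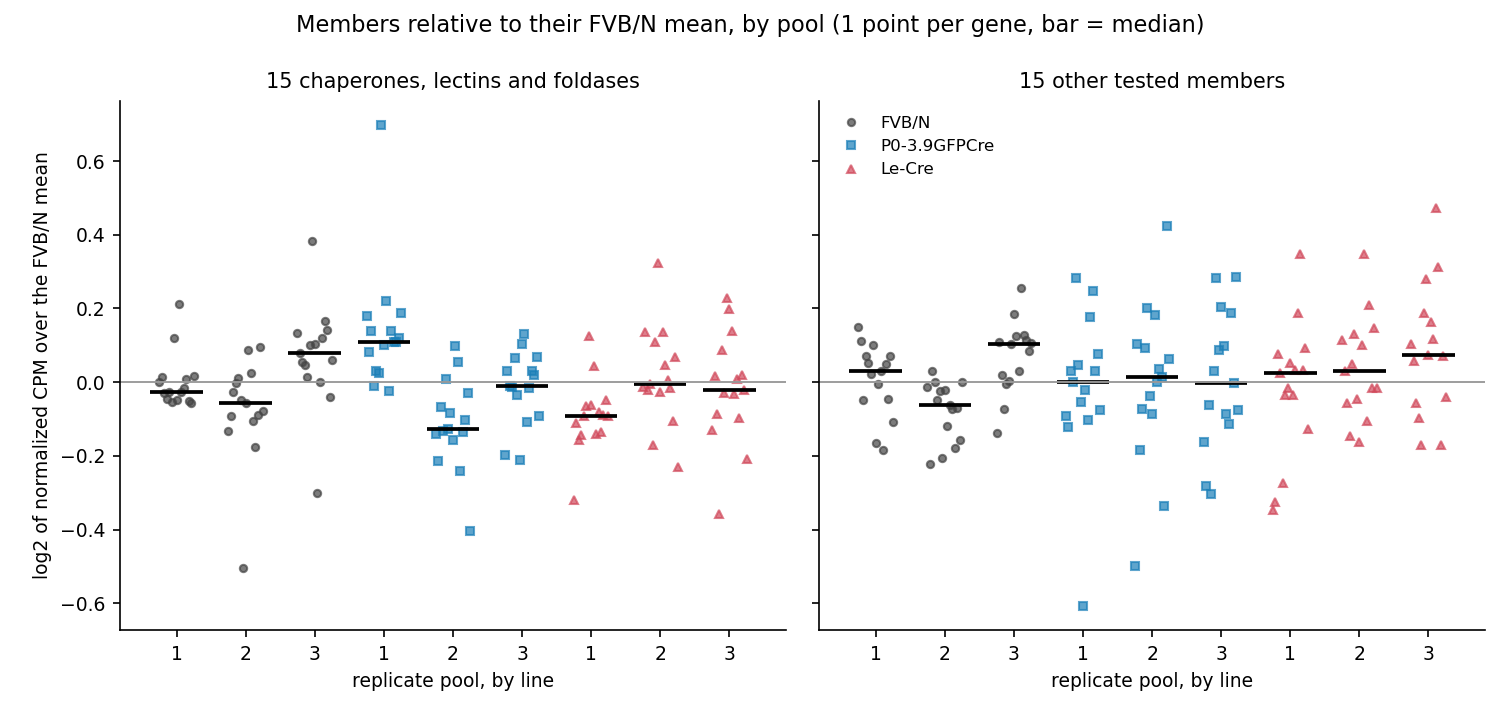
Log2 of normalized CPM relative to each gene's *FVB/N* mean, for 15 folding genes (left) and 15 other tested members (right), with 1 point per gene in each of the 9 pools and a bar at the median. The median of the folding genes is highest in *P0-3.9GFPCre* replicate 1 and lowest in *P0-3.9GFPCre* replicate 2.

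The differences of the sensors between lines were within their error. Against *FVB/N*, all 4 had negative log2 fold changes, which were between −0.08 and −0.01 for *Le-Cre* and between −0.24 and −0.07 for *P0-3.9GFPCre*. Those of the direct comparison were positive, at 0.02 to 0.21. None had an unadjusted p under 0.05, and the pools of all 4 overlapped in every comparison. The largest value, for *Ern1* in *P0-3.9GFPCre* against *FVB/N*, had an interval from −0.60 to 0.11.

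*Atf4* lies on chromosome 15 from 80255184 to 80257541 and had 213, 207 and 211 CPM in *FVB/N*, 217, 242 and 256 CPM in *P0-3.9GFPCre*, and 205, 230 and 240 CPM in *Le-Cre*. Every *P0-3.9GFPCre* pool was above every *FVB/N* pool, and *Atf4* was the only 1 of 30 members whose pools did not overlap in that comparison, beside 12.0% of all genes (6.02% higher and 5.94% lower). The log2 fold change was 0.18 (SE 0.08, unadjusted p = 0.0358, adjusted p = 0.687 by edgeR), and that of *Le-Cre* against *FVB/N* was 0.10 (SE 0.08, adjusted p = 0.814). In the direct comparison it was −0.08 (SE 0.08, adjusted p = 0.836). Leaving out any 1 of the *FVB/N* pools, *P0-3.9GFPCre* replicate 2 or *P0-3.9GFPCre* replicate 3 raised the unadjusted p above 0.05, and the log2 fold change then reached 0.13 at its lowest. When Y-linked CPM was added to the fit, it was 0.16 (unadjusted p = 0.135 by edgeR).

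*Xbp1*, on chromosome 11 from 5520659 to 5525893, had 29.6, 27.6 and 28.5 CPM in *FVB/N*, 34.8, 30.5 and 29.2 CPM in *P0-3.9GFPCre*, and 23.6, 29.6 and 25.4 CPM in *Le-Cre*. *Le-Cre* replicate 2 reached into the range of *P0-3.9GFPCre*, so that the 2 Cre lines overlapped. The log2 fold change of *Le-Cre* against *P0-3.9GFPCre* was −0.27 (SE 0.10, unadjusted p = 0.0192, adjusted p = 0.532 by edgeR). Against *FVB/N*, it was −0.13 (SE 0.10, adjusted p = 0.814) in *Le-Cre* and 0.14 (SE 0.10, adjusted p = 0.827) in *P0-3.9GFPCre*. Without *P0-3.9GFPCre* replicate 1, *Le-Cre* replicate 1 or *Le-Cre* replicate 3 the unadjusted p of the direct comparison was above 0.05, and its log2 fold change was between −0.36 and −0.19 over the 9 fits that each left out 1 pool.

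*Ddit3* lies on chromosome 10 from 127290774 to 127296288 and shares exon sequence with *Mars* on the opposite strand, whose reads cannot be told apart there without strand information. It had 2.57, 2.84 and 3.28 CPM in *FVB/N*, 1.89, 2.71 and 3.32 CPM in *P0-3.9GFPCre*, and 2.99, 2.57 and 3.03 CPM in *Le-Cre*, with overlap throughout. The log2 fold change was −0.02 (SE 0.24, adjusted p = 0.996) in *Le-Cre* against *FVB/N*, −0.13 (SE 0.24, adjusted p = 0.938) in *P0-3.9GFPCre* against *FVB/N* and 0.12 (SE 0.24, adjusted p = 0.942) in the direct comparison. *Atf5* had log2 fold changes between −0.01 and 0.08.

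Among the feedback regulators, *Ppp1r15b* showed the clearest separation. It lies on chromosome 1 from 133131143 to 133139783 and had 67.9, 63.8 and 68.0 CPM in *FVB/N*, 62.0, 66.6 and 62.7 CPM in *P0-3.9GFPCre*, and 68.0, 84.6 and 72.2 CPM in *Le-Cre*. All *Le-Cre* pools were above all pools of the other lines, by a small margin in replicate 1 and a large one in replicate 2. It was the only 1 of 30 members without overlap in *Le-Cre* against *P0-3.9GFPCre*, beside 14.1% of all genes (6.74% higher and 7.37% lower). The log2 fold change in that comparison was 0.23 (SE 0.08, unadjusted p = 0.0161, adjusted p = 0.525 by edgeR), and without *Le-Cre* replicate 2 it was 0.14 with an unadjusted p of 0.0804. Against *FVB/N* it was 0.17 (SE 0.08, unadjusted p = 0.0616, adjusted p = 0.667 by edgeR). With Y-linked CPM in the fit the latter was 0.29 (unadjusted p = 0.0372, adjusted p = 0.954 by edgeR), and *Ppp1r15b* was then the 1 member under 0.05 in *Le-Cre* against *FVB/N*. In *Le-Cre* against *P0-3.9GFPCre*, the stress-induced counterpart *Ppp1r15a* had a log2 fold change of −0.01 and *Asns* had 0.16, both with overlapping pools. Against *FVB/N*, *Le-Cre* had 0.07 and 0.19 for these 2 genes, also with overlap.

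ER-associated degradation held the other 2 members that stood out before adjustment. *Herpud1*, on chromosome 8 from 94386438 to 94395377, had 37.2, 31.7 and 39.3 CPM in *FVB/N*, 42.6, 36.3 and 40.9 CPM in *P0-3.9GFPCre*, and 45.7, 41.5 and 44.6 CPM in *Le-Cre*. Every *Le-Cre* pool was above every *FVB/N* pool, whereas the *P0-3.9GFPCre* pools overlapped with both. In *Le-Cre* against *FVB/N*, *Herpud1*, *Ppp1r15b* and *Creld2* were the 3 of 30 members (10%) without overlap, beside 13.5% of all genes (6.46% higher and 7.03% lower). The log2 fold change of *Herpud1* was 0.29 (SE 0.09, unadjusted p = 0.0105, adjusted p = 0.452 by edgeR), and in the 9 fits that left out 1 pool it lay between 0.20 and 0.35 with the unadjusted p never above 0.0467. When Y-linked CPM was added to the fit, it was 0.04 (unadjusted p = 0.702 by edgeR). Y-linked CPM did not overlap between *Le-Cre* and *FVB/N*, so this value does not tell line and sex composition apart. On the TPM scale the difference was larger, at 22.8 ± 1.38 TPM in *FVB/N*, 28.2 ± 2.22 TPM in *P0-3.9GFPCre* and 31.1 ± 1.3 TPM in *Le-Cre*. The transcript length that RSEM assigned to *Herpud1* ranged from 1461 bases in *Le-Cre* replicate 3 to 1876 bases in *FVB/N* replicate 3, and TPM divides by this length.

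*Syvn1*, on chromosome 19 from 6046576 to 6053712, shares exon sequence with *Mrpl49* on the opposite strand. It had 24.9, 21.2 and 25.1 CPM in *FVB/N*, 24.9, 31.7 and 28.8 CPM in *P0-3.9GFPCre*, and 25.2, 26.2 and 24.8 CPM in *Le-Cre*. *P0-3.9GFPCre* replicate 1 lay among the *FVB/N* pools, so that the lines overlapped. The log2 fold change of *P0-3.9GFPCre* against *FVB/N* was 0.26 (SE 0.10, unadjusted p = 0.0221, adjusted p = 0.662 by edgeR), and without *FVB/N* replicate 2, *P0-3.9GFPCre* replicate 2 or *P0-3.9GFPCre* replicate 3 the unadjusted p was above 0.05. Its partner *Sel1l* had log2 fold changes between −0.06 and −0.03, and *Edem1* between −0.09 and 0.04.

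**Figure D5:**
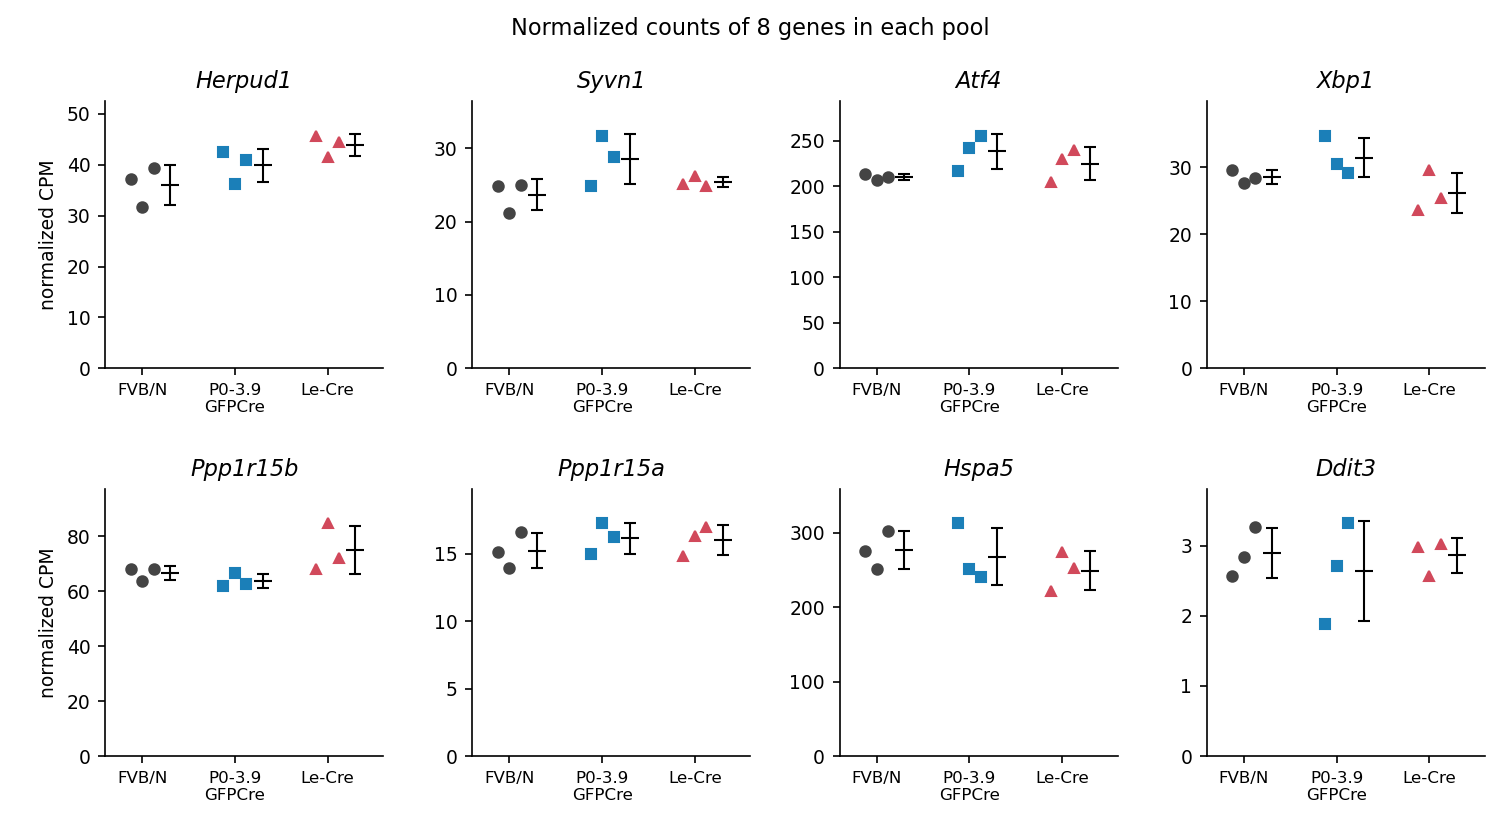
Normalized CPM of 8 members in each pool (points) with the mean and SD of the 3 pools of a line (black). The axes start at 0. *Herpud1* is higher in all *Le-Cre* pools than in all *FVB/N* pools, *Atf4* is higher in all *P0-3.9GFPCre* pools than in all *FVB/N* pools, and *Hspa5* and *Ddit3* overlap between all lines.

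A wider list of 68 genes of the same pathways, of which 66 passed the filter, gave the same counts after adjustment, with 0 past the cutoff in each comparison. In *Le-Cre* against *FVB/N*, 3 of 66 had a higher mean and 0 a lower mean at an unadjusted p under 0.05, beside 3.60% and 4.35% of all genes. They were *Sesn2*, a stress-induced inhibitor of mTORC1 signalling (13.8 ± 1.76 against 9.86 ± 1.89 CPM, log2 fold change 0.48, adjusted p = 0.386), *Mthfd2*, an enzyme of mitochondrial folate metabolism (16.5 ± 2.64 against 11.9 ± 2.08 CPM, 0.47, adjusted p = 0.513), and *Gars*, which encodes glycyl-tRNA synthetase (197 ± 8.00 against 177 ± 7.11 CPM, 0.15, adjusted p = 0.580). All 3 belong to the list of integrated stress response targets, in which the median log2 fold change over 26 genes was 0.02. Within this list the share under 0.05 was 11.5%, beside 7.94% of all genes. Pools did not overlap for 26.9% of the list (5 higher and 2 lower), beside 13.5% of all genes. The list was chosen with earlier results known, and its shares were not tested. With Y-linked CPM in the fit the log2 fold changes were 0.21 for *Sesn2*, −0.06 for *Mthfd2* and 0.06 for *Gars*. Since Y-linked CPM did not overlap between these lines, these values do not tell line and sex composition apart.

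In *P0-3.9GFPCre* against *FVB/N*, 1 of the 66 was higher and 1 lower at an unadjusted p under 0.05, beside 3.41% of all genes in each direction. The higher gene was *Phgdh*, the first enzyme of serine synthesis (291 ± 19.0 against 256 ± 12.5 CPM, log2 fold change 0.18, adjusted p = 0.670). With Y-linked CPM in the fit its log2 fold change was 0.11.

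In *Le-Cre* against *P0-3.9GFPCre*, 4 of the 66 were higher and 2 lower, beside 3.63% and 4.25% of all genes. The higher genes included *Slc7a1*, a cationic amino acid transporter (34.0 ± 2.01 against 26.4 ± 5.50 CPM, log2 fold change 0.37, adjusted p = 0.532) and *Mars*, which encodes methionyl-tRNA synthetase and shares exon sequence with *Ddit3* (44.0 ± 1.76 against 38.9 ± 2.58 CPM, 0.18, adjusted p = 0.542). The lower genes were *Erp29*, an ER folding factor (78.7 ± 6.97 against 93.4 ± 4.96 CPM, −0.25, adjusted p = 0.452), and *Vldlr*, a lipoprotein receptor that ATF4 can induce (195 ± 7.39 against 228 ± 17.1 CPM, −0.23, adjusted p = 0.535).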

How the data were processed

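Whole newborn lenses were measured by single-end RNA-Seq in 9 pools, grouped by line and numbered from the sample titles. Per the labels and the study's methods, the authors trimmed reads with Trimmomatic 0.36, mapped them to GRCm38 and quantified genes with RSEM 1.3.0. The deposited files give expected counts per gene (RSEM's estimated counts, not normalized) and TPM, which the authors' RSEM run scaled by length and depth. The annotation behind the files is not given in the sources used here, and coordinates come from GENCODE M21. The labels do not say whether the libraries kept strand, so reads of overlapping genes on opposite strands cannot be told apart. Besides *Ddit3* and *Syvn1*, members with such overlaps include *Atf5*, which shares exon sequence with *Nup62*, and *Manf*, which shares it with *Dcaf1*.

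Expected counts were rounded to whole numbers and fitted over all 9 pools with edgeR 4.0.16 in R 4.3.3 (TMM normalization, filterByExpr defaults, glmQLFit and glmQLFTest, Benjamini-Hochberg adjustment over 15557 genes). The cutoff (1.5-fold, adjusted p at or under 0.05) is that of the study's methods, which used DESeq2. DESeq2 1.42.0 was run as an alternative. SE was derived from the log2 fold change and its quasi-likelihood F (their ratio after taking the root of F), and intervals are at 95%. CPM is scaled to the TMM library size. TPM was used for levels between genes and for marker sums, and tests between lines used counts. TPM also moves with the transcript length RSEM assigns in each pool, which differed by more than 1.1-fold between pools for 19 of 33 members. RSEM's posterior SD, a deposited measure of the uncertainty from shared reads, was at most 1.36% of a member's count. The fit was tested on simulated counts.

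The member genes, roles and other gene lists were chosen with earlier results of these data known. Fold changes are given singly for *Hspa5*, *Xbp1*, *Atf4* and *Ddit3*, for members past the cutoff and for up to 8 members with an unadjusted p under 0.05. Of the other pathway genes, up to 3 per direction and comparison are named, except for results that are not reported here. Values given for *Creld2*, *Ern1*, *Atf5*, *Ppp1r15a*, *Asns*, *Sel1l* and *Edem1* outside this rule were chosen after their values were seen. Protein sequences were not analysed here. The p-values set the difference between lines against a spread between pools that edgeR estimated over all 3 lines and moderated across genes. An exact permutation test of 3 against 3 pools cannot give a two-sided p below 0.1.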

Additional observations from a re-analysis of the deposited data

How the results depend on the processing

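The count of 0 members past the cutoff was the same in all 3 comparisons under every alternative run, including RLE size factors, crystallins left out of the library sizes, no filter on low counts, a mean of at least 10 counts, DESeq2, only the pools compared, an adjusted p of at most 0.1 with no minimum fold, and each pool left out in turn. With DESeq2, a member left without an adjusted p, such as *Syvn1* in *P0-3.9GFPCre* against *FVB/N*, could not pass. The number of all genes past the cutoff was 10, 0 and 0 in the edgeR fit used here. The study, with DESeq2, reported deregulated genes in both Cre lines against *FVB/N*, so these counts are not the study's. Without the filter the number was 131, 93 and 123, and with DESeq2 it was 49, 2 and 35. It was 13, 0 and 31 with only the pools compared, 2, 0 and 0 with the replicate block and 1, 1 and 0 with Y-linked CPM in the fit. For *Le-Cre* against *FVB/N* it was 0 or 1 without any 1 of the *Le-Cre* or *FVB/N* pools. Without *FVB/N* replicate 2 it was 14 and 18 in the other comparisons, and 3 in *P0-3.9GFPCre* against *FVB/N* without *P0-3.9GFPCre* replicate 2. At an unadjusted p under 0.05, leaving out 1 pool gave 1 to 4 members in *Le-Cre* against *FVB/N* (4 without *Le-Cre* replicate 2 and 2 without *Le-Cre* replicate 1), 0 to 2 in *P0-3.9GFPCre* against *FVB/N* (0 without *FVB/N* replicate 2, *P0-3.9GFPCre* replicate 2 or *P0-3.9GFPCre* replicate 3, but 1 when *FVB/N* replicate 3 was dropped) and 1 to 2 in *Le-Cre* against *P0-3.9GFPCre* (1 without *Le-Cre* replicate 2). The median log2 fold change of members in *P0-3.9GFPCre* against *FVB/N* ranged from −0.0521 to 0.0511 over these fits, with 0.0511 without *P0-3.9GFPCre* replicate 2. With Y-linked CPM in the fit, 1 member instead of 2 was under 0.05 in *P0-3.9GFPCre* against *FVB/N*, and the log2 fold change of *Mthfd2* in *Le-Cre* against *FVB/N* turned to −0.0597. The cause was not tested. Values close to 0 changed sign when 1 pool was left out. For *Ddit3* they ranged from −0.0916 to 0.0855 in *Le-Cre* against *FVB/N* (above 0 without *FVB/N* replicate 3 or *Le-Cre* replicate 2), from −0.3338 to 0.0626 in *P0-3.9GFPCre* against *FVB/N* and from −0.0751 to 0.3209 in *Le-Cre* against *P0-3.9GFPCre* (both turned without *P0-3.9GFPCre* replicate 1). For *Hspa5* they ranged from −0.17 to 0.0245 in *P0-3.9GFPCre* against *FVB/N* (above 0 without *FVB/N* replicate 3, *P0-3.9GFPCre* replicate 2 or *P0-3.9GFPCre* replicate 3) and from −0.1775 to 0.0199 in *Le-Cre* against *P0-3.9GFPCre* (above 0 without *P0-3.9GFPCre* replicate 1). Blocking on the replicate number gave 0 members past the cutoff. In this blocked fit the counts under 0.05 were 1, 2 and 2 and the medians −0.02, −0.01 and 0.0028. Pools with the same number had a mean correlation of deviations of 0.03 (−0.08 to 0.11 over 9 pairs). Pools with different numbers had −0.02 (−0.15 to 0.1 over 18 pairs). With 3 pools per line, these correlations cannot show whether the numbers mark a shared batch. *Atf3*, *Trib3* and *Chac1* were all tested only without the filter and with DESeq2, where 33 members entered. In most fits that left out 1 pool, 31 members passed the same filter. None of these 3 genes had more than 17 counts in a pool.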
